A study of Danio rerio with 96 samples.

Results

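The data describe how far the effect of betamethasone on DNA methylation differed between glucocorticoid receptor (GR) mutant and wild-type zebrafish larvae. All 96 libraries of the series entered, as 24 GR mutant larvae in 100 µM betamethasone, 24 GR mutant larvae in 0.2% ethanol (control), 24 wild-type larvae in 100 µM betamethasone and 24 wild-type larvae in 0.2% ethanol. DNA came from heads dissected at 5 days post-fertilisation, was converted with bisulfite so that unmethylated cytosines are read as T, amplified with primers for chosen targets and sequenced. The sources used here do not give the mutant allele, the clutches, the targeted genes or an ethanol concentration for the treated larvae. A head holds many cell types, so a change in methylation per cell and a change in the mix of cells cannot be told apart. Each library was counted as 1 larva, and p-values measure the spread between these libraries, which may be partly technical. They do not measure the spread between clutches, plates or other batches, which the labels do not give. A batch that followed a group cannot be told apart from the interaction.

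GR is a ligand-activated transcription factor that binds cortisol, enters the nucleus and acts on genes near its response elements, and zebrafish carry a single GR gene. Betamethasone is a synthetic glucocorticoid that activates GR. In mammals, glucocorticoid exposure is known to go with loss of methylation at CpGs in GR response elements of some target genes, FKBP5 among them. If the mutation removes GR function, which the labels do not state, a change that needs GR should be seen in wild-type and not in mutant larvae, whereas a change that reaches the DNA another way should be seen in both. The quantity used here is the interaction, in percentage points of methylation. It is the betamethasone minus control difference in mutants minus the betamethasone minus control difference in wild type. The interaction measures how unequal these differences are and does not by itself separate the cases above. A change in mutants alone, changes of opposite sign, or control groups that differ between genotypes can also give an interaction.

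The interaction was taken at 50 CpGs in 8 amplicons, named here by chromosome. Positions count from 1 on build GRCz10, the build in the submitters' processing notes. Amplicon 2 is chr2:14499688-14499886, amplicon 3 is chr3:25887983-25888164, amplicon 8 is chr8:22488700-22488907, amplicon 15 is chr15:4079178-4079402 and amplicon 16 is chr16:8404129-8404240. The targets on chromosome 6 are amplicon 6a at chr6:27961540-27961753, amplicon 6b at chr6:41099247-41099469 and amplicon 6c at chr6:49743949-49744115. No GRCz10 annotation was used, so genes, exons and regulatory elements at these positions are not named. A CpG counted where a larva had at least 30 reads. Libraries with values held 13422 to 2009599 cytosine calls, and 1 wild-type betamethasone library with 19 calls gave none, which left 95. Libraries with at least 500 reads at every tested CpG of an amplicon were compared in pairs. Many of 1 group nearly matched, with a chi-square under 4 per CpG. A further 4 libraries, 1 in each group, had such matches at 3 or more amplicons, and the closest lay in another group each time. They were replicate 19 of treated mutants, 23 of control mutants, 23 of treated wild type and 20 of control wild type.

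Each feature was put in a class by the 95% confidence interval of its interaction. GR-dependent means that the interval excluded 0, GR-independent that it included 0 and lay wholly within 5 percentage points of 0, and unresolved covers every other case. The class names say where the interval lies and nothing about mechanism. A GR-independent feature need not respond to betamethasone in either genotype. Of the 8 amplicons, 3 (37.5%) were GR-dependent, 1 (12.5%) was GR-independent and 4 (50.0%) were unresolved. Of the 50 CpGs, 15 (30.0%) were GR-dependent, 6 (12.0%) GR-independent and 29 (58.0%) unresolved. An interval excluding 0 was found for the betamethasone difference itself at 1 of 8 amplicons in mutants (12.5%) and at 4 of 8 in wild type (50.0%).

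**Figure D1:**
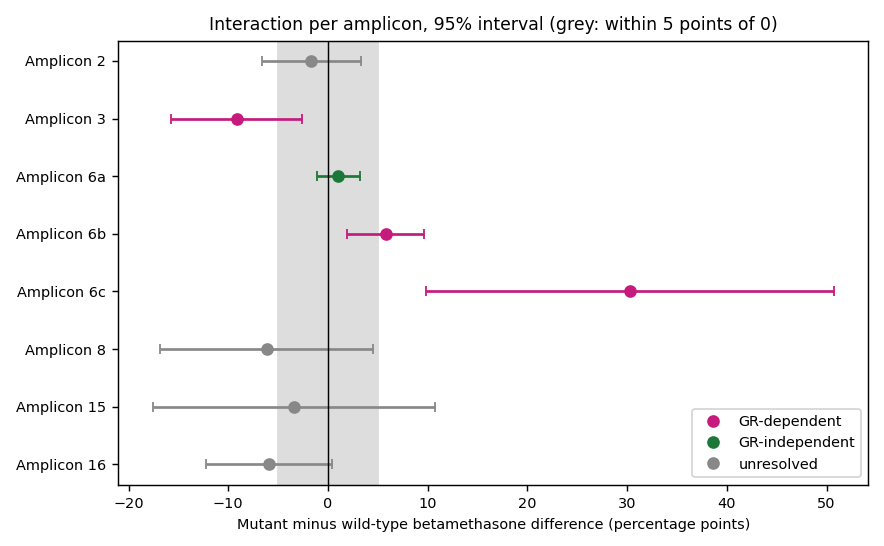
Interaction of each of the 8 amplicons (x axis, percentage points, mutant minus wild-type betamethasone difference), with bars for the 95% interval and the grey band within 5 points of 0. Amplicon 3 lies below 0 and amplicons 6b and 6c above it, amplicon 6a lies inside the band, and the other 4 intervals cross 0 and leave the band.

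By the beta-binomial likelihood ratio test, which compares methylated reads out of all reads with 1 observation per larva, the interaction passed an adjusted p of 0.05 at 3 of 8 amplicons (37.5%), namely 3, 6b and 6c. The threshold was also passed at 3 of 8 (37.5%) by a permutation test of equally weighted larvae. Among those that passed, the interaction was positive at 2 of 8 (25.0%), 6b and 6c, and negative at 1 of 8 (12.5%), amplicon 3. In each of these amplicons a different group stood farthest from the rest. At 6b this was wild-type betamethasone, at 6c wild-type control, and at amplicon 3 GR mutant control.

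At amplicon 6b (4 CpGs) methylation was lower with betamethasone in wild-type larvae, by more than in mutants. Mutant betamethasone larvae had a lowest level of 60.8%, a median of 73.2% and a highest of 82.2%, against 59.2%, 75.6% and 84.2% in mutant control larvae. Wild-type betamethasone larvae had 54.0%, 60.9% and 77.1%, against 63.7%, 68.7% and 74.95% in wild-type control larvae. The wild-type treated larvae thus sat low, with 21 of 23 under the wild-type control median, while 14 of 23 treated mutants were under the mutant control median, and all groups overlapped in range. The difference was -1.27 (95% interval -4.40 to 1.87) in mutants and -7.07 (-9.38 to -4.76) in wild type. The mutant interval therefore did not reach the wild-type value. The interaction was 5.80 (SE 1.93, interval 1.96 to 9.65, n = 94, adjusted p = 0.0205 by the beta-binomial test).

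Wild-type betamethasone larvae stood 10.5 points below the mean of the other 3 groups, whose means spanned 5.82 points. The direction was shared by the whole amplicon, as the interaction was positive at all 4 CpGs, from 2.73 at 41099420 to 10.1 at 41099447. The interval excluded 0 at 3 of them, with 41099385 unresolved at 5.96 (-3.96 to 15.9). Position 41099447 was at 92.3% ± 7.96 in treated and 94.2% ± 5.76 in control mutants (SD, n = 23 and 24), against 74.3% ± 7.68 in treated and 86.3% ± 4.14 in control wild type (SD, n = 23 and 24). Its interval was 4.64 to 15.5, with an adjusted p of 0.0886 by the beta-binomial test and 0.00700 by the permutation test. It is among the 10 CpGs less than 30 bp from an amplicon end, where primer bases may be read, which was not tested. Without these CpGs amplicon 6b had an interaction of 4.37 (adjusted p = 0.0811).

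Not all of these CpGs kept their class on another scale. On the logit scale, which stretches differences near 0% and 100%, the interval at 41099447 still excluded 0, while that at 41099291 (4.21 points, interval 0.50 to 7.93) and 41099420 (2.73 points, 0.345 to 5.12) did not. Both had group means above 80% throughout. Their beta-binomial adjusted p was 0.565 and 0.303. Median depth at 6b was 7934 reads in treated and 7927 in control mutants, against 7999 in treated and 3312 in control wild type. The interaction of log10 depth at 6b was -0.530 (-0.873 to -0.187). With log10 depth as a covariate the interaction in methylation at 6b was 5.72 (1.27 to 10.2, adjusted p = 0.0485 by the beta-binomial test). Counts end near 8000 reads, so this covariate cannot adjust for depth beyond that.

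Non-CpG methylation, which includes incompletely converted cytosines, also moved between the groups. It averaged 1.51% ± 0.434 in treated and 1.34% ± 0.647 in control mutants (SD, n = 24 each), against 1.64% ± 0.379 in treated and 1.95% ± 0.638 in control wild type (SD, n = 23 and 24). Its interaction was 0.476 points (interval 0.0378 to 0.915, permutation p = 0.0332, adjusted p = 0.0995 over 3 library measures). Levels above 2% occurred in 1 treated and 5 control mutants and in 2 treated and 10 control wild-type libraries. Without these 18 libraries the interaction at 6b was 3.45 (-0.657 to 7.56, adjusted p = 0.331, n = 76) and unresolved, although its CpG 41099447 was at 9.56 (3.87 to 15.2). Without them amplicons 6c (28.0, interval 5.83 to 50.2) and 3 (-10.0, -17.9 to -2.11) stayed GR-dependent with an adjusted p of 0.0565 each. With non-CpG methylation as a covariate over all libraries, 6b was at 6.10 (2.09 to 10.1, adjusted p = 0.0239 by the beta-binomial test).

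At amplicon 6c (5 CpGs) the interaction was the largest of the 8, and the wild-type control group stood apart. Mutant betamethasone larvae ran from 8.29% through a median of 42.5% to 96.4%, against 14.5%, 40.0% and 93.3% in mutant control larvae. Wild-type betamethasone larvae ran from 18.6% through 55.8% to 93.0%, against 50.3%, 87.3% and 95.9% in wild-type control larvae. Wild-type control larvae had no level under 30%, which 8 treated mutants, 7 control mutants and 5 treated wild-type larvae had, and the groups overlapped above 50.3%. The difference was 5.94 (-11.1 to 23.0) in mutants and -24.3 (-36.2 to -12.4) in wild type. The interaction was 30.3 (SE 10.3, interval 9.78 to 50.8, n = 94, adjusted p = 0.0205 by the beta-binomial test).

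Wild-type controls stood 27.6 points above the mean of the other 3 groups, whose means spanned 7.88 points. Group means were 51.8% ± 33.4 in treated and 45.9% ± 23.3 in control mutants (SD, n = 23 and 24), against 53.8% ± 23.2 in treated and 78.1% ± 16.5 in control wild type (SD, n = 23 and 24). The 5 CpGs of 6c (49743986, 49743996, 49744039, 49744053 and 49744068) moved as 1 block, with interactions of 28.7 to 31.6 and a median within-larva range of 3.93 points over all larvae. All 5 were GR-dependent, 3 passed by the beta-binomial test (adjusted p = 0.0401 each) and 5 by the permutation test (adjusted p = 0.0345 each). They amount to nearly 1 measurement. Median depth was 7999.5 to 8015 reads over the groups, near the highest count at any cytosine (8088), while SDs between larvae were 16.5 to 33.4 points. The interaction of log10 depth was -0.264 (-0.498 to -0.0293). With log10 depth as a covariate the interaction in methylation was 32.9 (9.62 to 56.1, adjusted p = 0.0298 by the beta-binomial test). Counts end near 8000 reads, so this covariate cannot adjust for depth beyond that.

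**Figure D2:**
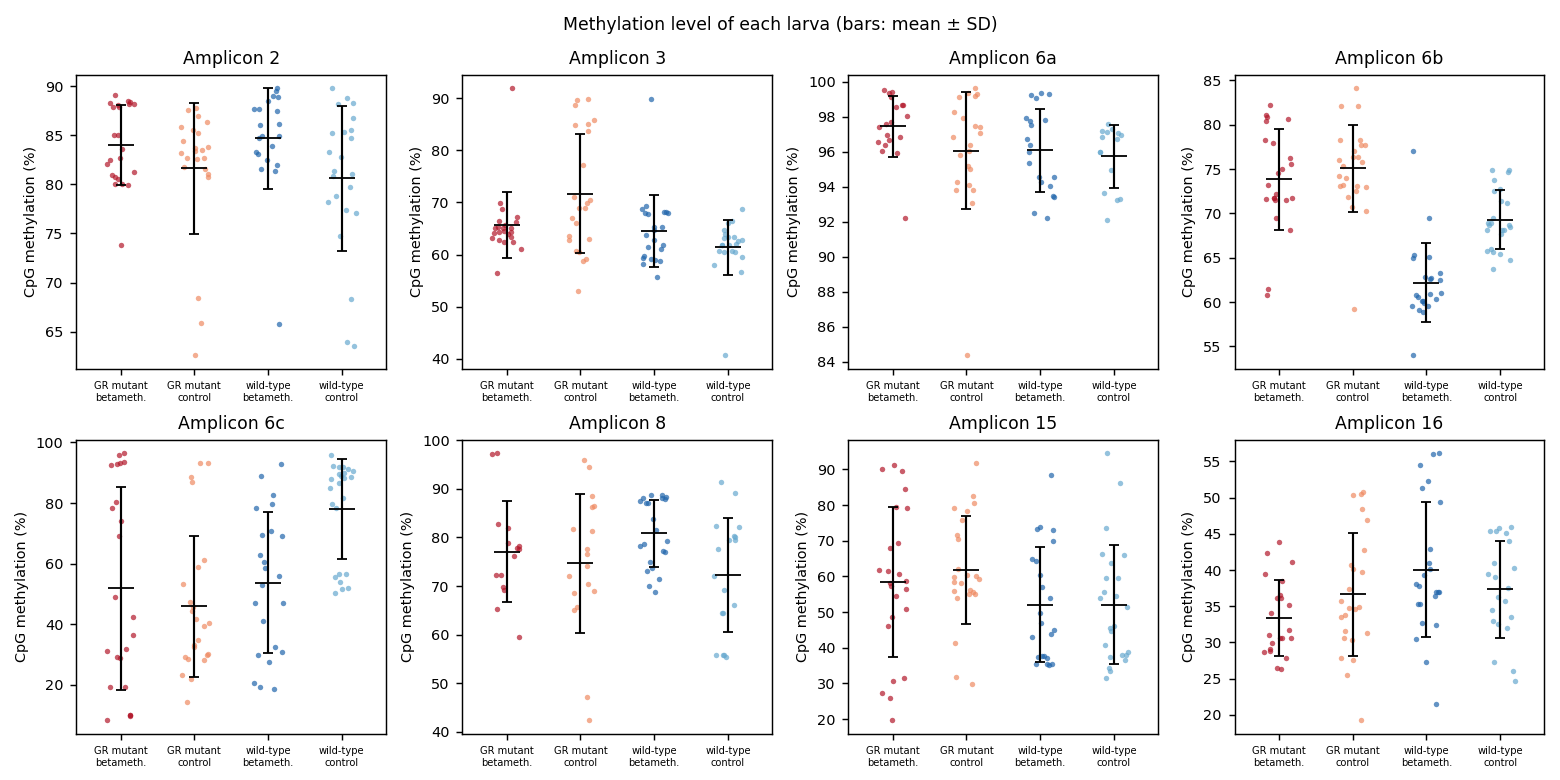
Methylation level of each larva (y axis, %) at the 8 amplicons by group (x axis, betamethasone shortened to betameth.), with points for larvae and bars for the mean ± SD. At 6b the wild-type betamethasone larvae sit lowest with a mean of 62.2%, and at 6c the wild-type control larvae sit highest with a mean of 78.1%. At amplicon 3 the mutant control larvae have the highest mean, 71.6%, although single treated larvae of both genotypes reach as high as any of them.

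At amplicon 3 (6 CpGs) the betamethasone difference had an interval that excluded 0 in mutants and included it in wild type, the reverse of 6b and 6c. Mutant betamethasone larvae had a lowest level of 56.5%, a median of 64.5% and a highest of 91.9%, against 52.9%, 68.9% and 89.8% in mutant control larvae. Wild-type betamethasone larvae had 55.6%, 63.7% and 89.8%, against 40.7%, 62.0% and 68.7% in wild-type control larvae. The groups overlapped, yet 21 of 23 treated mutants lay under the mutant control median, while 13 of 23 treated wild-type larvae lay above theirs. The difference was -6.02 (-11.6 to -0.478) in mutants and 3.14 (-0.554 to 6.83) in wild type. The interaction was -9.16 (SE 3.28, interval -15.7 to -2.59, n = 91, adjusted p = 0.0205 by the beta-binomial test).

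Mutant controls stood 7.82 points above the mean of the other 3 groups, which spanned 4.27 points. Depth at amplicon 3 moved with the same group, at a median of 136 reads in treated and 4475 in control mutants, against 1109 in treated and 148 in control wild type. The interaction of log10 depth was -1.71 (-2.27 to -1.15). With log10 depth as a covariate the interaction in methylation was -5.32 (-15.6 to 4.96, adjusted p = 0.516) and unresolved. Weighting larvae by their reads in a quasi-binomial F test gave -13.9 with an adjusted p of 0.110.

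Within amplicon 3 the interaction was negative at all 6 CpGs but of very unequal size. Position 25888054 had the lowest p-value of the 50 CpGs. Treated mutants were at 73.8% ± 6.19 and control mutants at 80.4% ± 10.2 (SD, n = 23 each), against 73.97% ± 10.5 in treated and 65.02% ± 9.76 in control wild type (SD, n = 23 each). It was the only CpG of the 50 with an interval excluding 0 in each genotype, at -6.54 (-11.6 to -1.48) in mutants and 8.95 (2.92 to 15.0) in wild type. The interaction was -15.5 (SE 3.89, interval -23.2 to -7.73, adjusted p = 0.00174 by the beta-binomial test). It passed in 13 of 13 retests under other settings, with adjusted p of up to 0.0355, and without any 1 library. With log10 depth as a covariate it was at -15.6 (adjusted p = 0.0303 by the beta-binomial test). At a minimum of 1000 reads it could not be fitted.

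Its neighbours 25888047 (-18.7, interval -33.4 to -4.07) and 25888039 (-15.2, -28.4 to -2.12) were also GR-dependent, with beta-binomial adjusted p of 0.164 and 0.105. With log10 depth as a covariate both were unresolved, 25888047 at -12.7 (-34.3 to 8.79) and 25888039 at -6.49 (-29.4 to 16.4). By the read-weighted quasi-binomial F test they were at -31.7 and -40.1 (adjusted p = 0.02004 and 0.00706), and 25888054 was at -23.6 (adjusted p = 0.02004). With matching libraries of at least 500 reads counted once, both neighbours were again unresolved, at -16.9 and -12.4. Position 25888004 was GR-independent at -0.587 (-4.21 to 3.04). It was the only GR-independent CpG with a betamethasone difference whose interval excluded 0 in a genotype. That difference was -2.48 (-4.27 to -0.684) in mutants, against -1.89 (-5.09 to 1.31) in wild type. It is near the amplicon end.

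Over the 50 CpGs, 7 (14.0%) passed the beta-binomial interaction test at an adjusted p of 0.05, with a positive interaction at 4 (8.0%) and a negative one at 3 (6.0%). An unadjusted p below 0.05 was found at 14 (28.0%), and 10 (20.0%) passed by the permutation test. The 7 were 25888054, 27961650, 49743986, 49743996, 49744068, 8404205 and 8404225. In 6 of them the adjusted p was 0.0401, close to the threshold. Under other settings 27961650 passed in 9 of 13 retests, each of the 3 CpGs of 6c in 10 of 14, 8404205 in 5 of 14 and 8404225 in 5 of 13. The count was 1 without replicate 8, 19 or 20 of treated mutants, 16, 21 or 23 of control mutants, 11 or 12 of treated wild type, or 13, 17 or 20 of control wild type. It was 4 without replicate 13 or 16 of treated mutants or replicate 6 of control mutants. Without any 1 of the other libraries it stayed between 5 and 10. The count of GR-dependent CpGs stayed at 15 or 16 without any 1 library, but its 95% intervals are not adjusted for the number of CpGs. With intervals widened for the number of features tested, only 25888054 and 41099447 stayed GR-dependent. Of the 15, 5 are the CpGs of 6c, which are nearly 1 measurement.

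**Figure D3:**
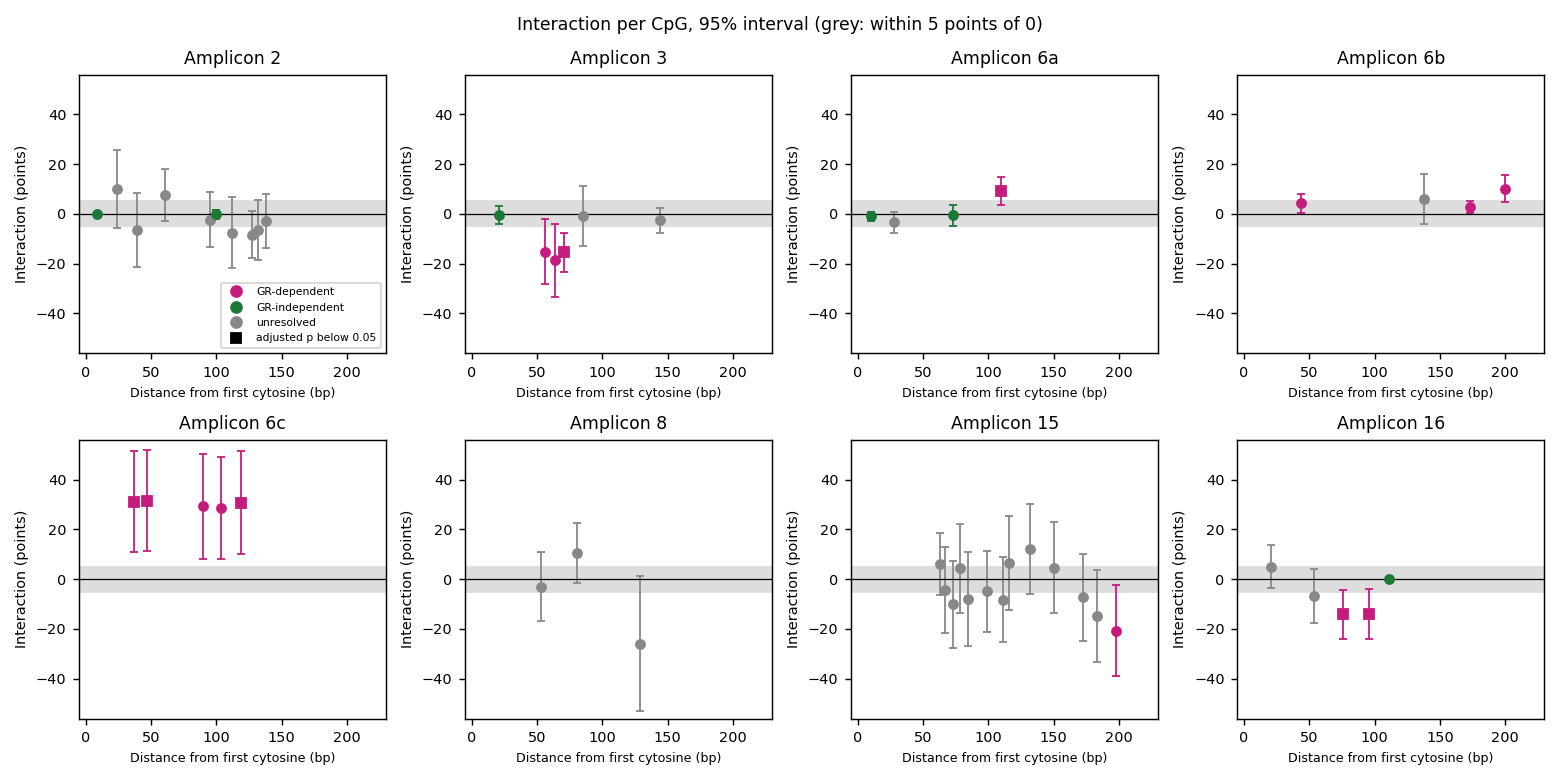
Interaction of each CpG (y axis, percentage points) against its distance in bp from the first cytosine of the amplicon (x axis), with bars for the 95% interval, squares for an adjusted p below 0.05 and the grey band within 5 points of 0. In 6c all 5 CpGs lie near 30 points, whereas in amplicons 3, 6a, 15 and 16 the intervals of 1 to 3 CpGs leave the line at 0 and those of their neighbours cross it.

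Amplicon 16 (5 CpGs) was unresolved as a whole, at an interaction of -5.92 (-12.2 to 0.404, adjusted p = 0.185), but 2 of its CpGs passed. Treated mutants had levels of 26.4%, 31.3% and 43.9% (lowest, median, highest), against 19.2%, 34.9% and 50.7% in control mutants. Treated wild type had 21.5%, 37.8% and 56.1%, against 24.7%, 37.5% and 45.9% in control wild type. The group farthest from the others was the treated mutants, 4.59 points below their mean, and its range lay inside that of every other group. Without any 1 of replicates 5 and 8 of treated mutants, 9 and 14 of control mutants, 7 and 16 of treated wild type, or 1 and 14 of control wild type, the interval excluded 0. Over all 95 libraries left out in turn the interaction was -6.76 to -5.19. Without the CpGs near its ends it was -10.3 (-20.0 to -0.608, adjusted p = 0.0811) and GR-dependent, as it was without libraries above 2% non-CpG methylation (-7.96, -15.1 to -0.866, adjusted p = 0.0565).

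Position 8404205 was at 44.6% ± 12.4 in treated and 55.2% ± 12.3 in control mutants (SD, n = 22 and 24), against 60.0% ± 12.5 in treated and 56.6% ± 9.86 in control wild type (SD, n = 23 and 21). The difference was -10.6 (-18.0 to -3.27) in mutants and 3.42 (-3.40 to 10.2) in wild type, and the interaction was -14.0 (interval -23.9 to -4.16). At 8404225, near the amplicon end, the differences were -6.62 (-13.9 to 0.663) in mutants and 7.36 (0.225 to 14.5) in wild type, and the interaction was again -14.0 (-24.0 to -3.95). Both had an adjusted p of 0.0401 by the beta-binomial test. At a minimum of 1000 reads they were unresolved, at -4.86 and -13.1 (adjusted p = 0.765 and 0.226). Weighted by reads 8404205 was at -6.74 (adjusted p = 0.377 by the quasi-binomial test). Position 8404240 of the same amplicon, near its end, had a highest level of 0.943% in any larva and was GR-independent (-0.0500, interval -0.135 to 0.0348).

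Amplicon 6a (4 CpGs), the most methylated target, was the GR-independent amplicon. Its group means of 95.7% to 97.5% left little room for an increase. On the logit scale its interval was -0.595 to 0.741, and no margin was set on that scale. Treated mutants had levels of 92.2%, 97.6% and 99.5% (lowest, median, highest), against 84.4%, 96.6% and 99.7% in control mutants. Treated wild type had 92.2%, 96.2% and 99.38%, against 92.1%, 96.8% and 97.6% in control wild type. The groups overlapped over most of their range, and the difference was 1.39 (-0.259 to 3.05) in mutants and 0.341 (-1.09 to 1.78) in wild type. The interaction was 1.05 (-1.10 to 3.20, n = 76), with no betamethasone difference of the amplicon mean resolved in either genotype.

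The amplicon mean of 6a joined CpGs with interactions of opposite sign. Position 27961650 was GR-dependent, with 97.1% ± 3.57 in treated and 91.4% ± 7.90 in control mutants (SD, n = 19 and 22), against 92.4% ± 7.98 in treated and 95.8% ± 3.79 in control wild type (SD, n = 20 and 15). Its differences were 5.75 (1.93 to 9.58) in mutants and -3.45 (-7.61 to 0.715) in wild type, and its interaction was 9.20 (3.67 to 14.7, adjusted p = 0.0401 by the beta-binomial test). Position 27961568 had differences of 1.88 (-0.729 to 4.49) in mutants and 5.24 (1.72 to 8.75) in wild type. Its interaction ran the other way at -3.36 (-7.61 to 0.893), and it was unresolved. Without replicate 17 of control mutants it was GR-dependent (-4.52, interval -8.15 to -0.889, adjusted p = 0.0420 by the beta-binomial test). Position 27961550, with group means of 97.7% to 99.3%, was GR-independent at -1.02 (-2.76 to 0.715). Position 27961613 was GR-independent by a narrow margin, at -0.611 (-4.98 to 3.76). It was unresolved in 42 of 95 fits with 1 library left out. Without the CpGs near its ends, which removes 27961568 and 27961550, amplicon 6a had an interaction of 4.28 (0.946 to 7.61, adjusted p = 0.0985) and was GR-dependent by its interval.

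Amplicons 2, 8 and 15 were unresolved, each with an interval that reached past 5 points on at least 1 side. At amplicon 2 the difference was 2.41 (-0.896 to 5.72) in mutants and 4.09 (0.252 to 7.92) in wild type, and the interaction was -1.67 (-6.66 to 3.31). Of its 10 CpGs 0 were GR-dependent, and their interactions ran from -8.34 (-17.8 to 1.07) at 14499815 to 10.04 (-5.48 to 25.6) at 14499712. Position 14499788 was GR-independent at a level above 99% in each group mean (-0.246, -1.87 to 1.38), as was 14499697 at a level near 0%. Positions 14499697 and 14499712 are near the amplicon end, where primer bases may be read. Amplicon 15 had an interaction of -3.42 (-17.6 to 10.7) at a median of 8006 to 8024 reads per group and SDs between larvae of 15.1 to 21.0 points. Its highest CpG was 4079310 at 12.2 (-5.93 to 30.4) and its lowest 4079376.

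Amplicon 8 held the largest wild-type difference of the 50 CpGs, and that CpG was unresolved. Position 22488829 was at 58.8% ± 24.8 in treated and 50.1% ± 32.2 in control mutants (SD, n = 15 and 18), against 77.8% ± 22.7 in treated and 43.2% ± 33.8 in control wild type (SD, n = 22 and 18). The difference was 8.71 (-11.5 to 29.0) in mutants and 34.6 (15.6 to 53.7) in wild type. Its interaction of -25.9 (-53.1 to 1.32) had a beta-binomial p of 0.0366 and an adjusted p of 0.141. The interval excluded 0 when any 1 of 15 single libraries was left out, and over all 95 left out in turn the interaction stayed between -29.0 and -22.8. Median depth there was 61 reads in treated and 170 in control mutants, against 1390 in treated and 180 in control wild type. Position 22488781, the highest of the amplicon, was at 10.4 (-1.69 to 22.5). Over the whole amplicon the difference was 2.44 (-6.34 to 11.2) in mutants and 8.59 (2.11 to 15.1) in wild type. The interaction of the whole amplicon was -6.15 (-16.8 to 4.55), and -16.4 (-27.1 to -5.76, adjusted p = 0.0565) without libraries above 2% non-CpG methylation.

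**Figure D4:**
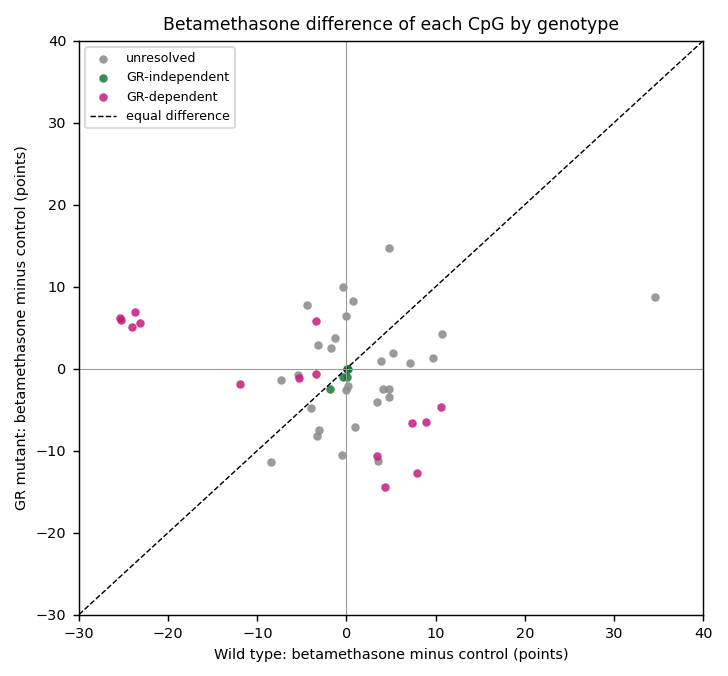
Betamethasone minus control difference of each of the 50 CpGs in GR mutants (y axis, percentage points) against wild type (x axis), coloured by class, with a dashed line where both are equal. The 5 CpGs of 6c lie far left of the line near -24 in wild type and 6 in mutants, and GR-independent CpGs gather near the origin.

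The 2 differences behind each class were compared over all CpGs. In wild type the interval excluded 0 at 16 of 50 CpGs (32.0%), 7 higher and 9 lower with betamethasone, and in mutants at 9 of 50 (18.0%), 2 higher and 7 lower. Of the 16 wild-type CpGs, 11 were GR-dependent, 0 were GR-independent and 5 were unresolved. At 14 of the 16 the mutant interval did not contain the wild-type value. Of the 9 mutant CpGs, 4 were GR-dependent, 1 was GR-independent and 4 were unresolved. The libraries of each genotype enter both its own difference and the interaction, so neither set of counts is independent of the class. The comparison at the 16 CpGs also uses wild-type values picked for intervals excluding 0, which favours values outside the mutant interval. No CpG had a difference excluding 0 in the same direction in both genotypes. Among the 15 GR-dependent CpGs, 10 had an interval excluding 0 in wild type alone, 3 in mutants alone, 1 in both and 1, 4079376, in neither.

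Whether a CpG departed from its own amplicon was tested within larvae, by the interaction of its level minus the mean of the other CpGs of the amplicon in the same larva. By the permutation test, 8 of 50 CpGs (16.0%) passed an adjusted p of 0.05 and 17 (34.0%) had an unadjusted p below 0.05. The clearest was 4079376 of amplicon 15, which departed from its neighbours by -18.6 points (-26.5 to -10.8, permutation p = 1e-05, the smallest that the permutations can give, adjusted p = 5e-04). Its own interaction was -20.6 (-39.1 to -2.17) and that of the other 12 CpGs -1.99. That interaction did not pass, with an adjusted p of 0.180 by the beta-binomial test and 0.0983 by the permutation test, nor in any of 13 retests (0 passed). The level of 4079376 was 54.7% ± 28.1 in treated and 67.4% ± 20.6 in control mutants (SD, n = 24 each), against 55.1% ± 21.6 in treated and 47.2% ± 19.0 in control wild type (SD, n = 23 and 24). It is near the amplicon end, and 4079361, 15 bp from it, departed in the same direction (-12.3, -21.1 to -3.42, adjusted p = 0.0474).

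In amplicon 6a, 27961650 departed by 10.9 (5.14 to 16.6, adjusted p = 0.00450) and 27961568 by -5.88 (-10.4 to -1.35, adjusted p = 0.0474). In amplicon 16, 8404205 and 8404225 departed by -10.1 each (adjusted p = 0.0312 and 0.0474) and 8404150 by 13.7 (4.23 to 23.1, adjusted p = 0.0458), in the permutation test. Departures within an amplicon sum to 0 by construction, so these are linked. Position 8404150 is near the amplicon end. None of these CpGs of amplicon 16 passed at a minimum of 10 or 1000 reads, or without the 4 libraries that matched another group. All of them passed without libraries above 2% non-CpG methylation. In amplicon 6c, 49744053 departed by only -2.02 (-3.25 to -0.791, adjusted p = 0.0245), small beside its own 28.7. At 25888054 of amplicon 3 the departure was -8.28 (-16.3 to -0.257, adjusted p = 0.137), and at 41099447 of 6b 5.77 (1.01 to 10.5, adjusted p = 0.0739).

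**Figure D5:**
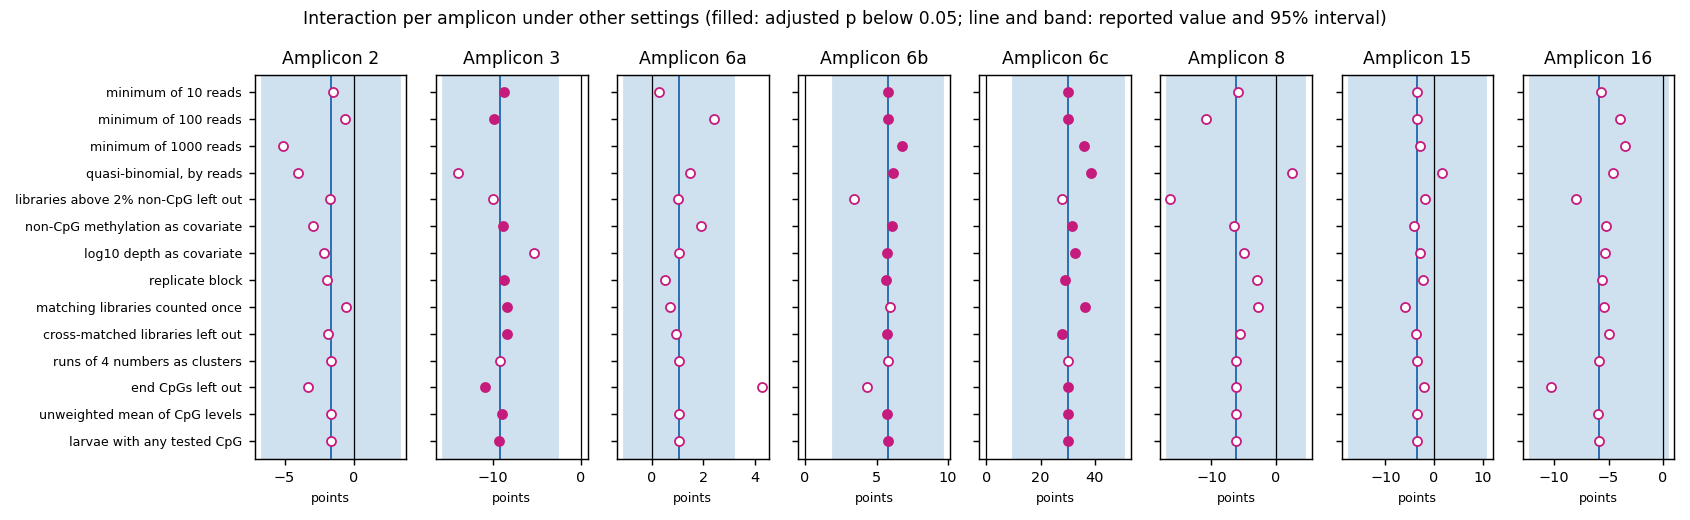
Interaction of each amplicon (x axes, percentage points, on a scale of its own) under 14 other settings (rows), with filled points for an adjusted p below 0.05, and a line and band for the reported value and its 95% interval. Amplicon 6c stays near 30 points in most rows, 6b is at 3.45 when libraries above 2% non-CpG methylation are left out, and amplicon 3 is nearest to 0 with depth as a covariate.

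CpG methylation outside the amplicons, summed per library, gave a rough comparison with the rest of the covered sequence. The amplicons were set by depth and not by a list of targets, so some of these CpGs may have been targeted. No common set of sites was used, and each library gave the CpGs that it happened to cover. Libraries with values held 216 to 104125 such calls, at levels of 20.6% to 96.8%. A difference between groups may therefore come from the sites covered, which was not tested. It averaged 79.3% ± 9.62 in treated and 70.0% ± 15.5 in control mutants (SD, n = 24 each), against 69.9% ± 12.0 in treated and 68.7% ± 21.0 in control wild type (SD, n = 23 and 24). The interaction there was 8.14 (-4.26 to 20.5, permutation p = 0.197), which is unresolved by the same rule. The difference was 9.31 (1.77 to 16.9) in mutants and 1.17 (-8.90 to 11.3) in wild type. The interaction of log10 cytosine calls per library was -0.167 (-0.423 to 0.0899, permutation p = 0.209).

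The results were also taken with matching libraries treated in other ways. Only libraries with at least 500 reads at every tested CpG of an amplicon could match. At amplicon 3 the median depth was 136 reads in treated mutants and 148 in control wild type. Most libraries of these groups therefore could not match there. Counting libraries of 1 group that matched at an amplicon as 1 larva left 66 of 94 at 6b, 68 of 94 at 6c and 79 of 91 at amplicon 3. The interaction was then 5.93 at 6b (adjusted p = 0.0784), 36.4 at 6c (0.0331) and -8.36 at amplicon 3 (0.0498) by the beta-binomial test. Without the 4 libraries that matched another group it was 5.71 at 6b, 27.9 at 6c and -8.38 at amplicon 3, and the 3 amplicons passed, but 1 of 50 CpGs passed (25888054). With runs of 4 neighbouring replicate numbers as clusters, the intervals still excluded 0, at 1.25 to 10.4, 1.14 to 59.4 and -17.2 to -1.12. After adjustment 0 of 8 amplicons passed in that cluster-robust test, with 3 at an unadjusted p below 0.05, and adjusted p was 0.111 at 6b and amplicon 3 and 0.113 at 6c.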

How the data were processed

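Bisulfite amplicon sequencing was carried out on 96 zebrafish larval head libraries in 4 groups of 24, taken with their replicate numbers from the labels. The submitters' processing notes name BS-Seeker2, cutadapt, FastQC and the build GRCz10, without versions or settings. For each library the authors deposited, per cytosine, a count of methylated reads, a count of all reads and a methylation fraction with 2 decimals. The fraction differed from the ratio of the counts beyond rounding at 0 cytosines, and the counts were used.

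An amplicon was a run of cytosines at most 100 bp apart with at least 30 reads in at least 48 libraries; 1 run without a CpG was left out. CpGs needed 10 larvae per group with 30 reads. Of the 96 libraries, 95 gave values and 63 held all 50 CpGs. Amplicon levels sum reads over the tested CpGs of larvae that have them all. The highest count at a cytosine was 8088 and 89 libraries reached 8000, so the deepest amplicons end near the same count. Reads are PCR copies without molecular identifiers, and intervals rest on the spread between larvae.

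The interaction was estimated from unweighted group means with a Welch standard error and Satterthwaite degrees of freedom, and tested by beta-binomial regression on the logit scale with a two-sided likelihood ratio test. Two-sided permutation tests used 100000 resamples of residuals of the additive model. Adjustment followed Benjamini-Hochberg over the 8 amplicons or 50 CpGs. Named are all amplicons, CpGs that passed, GR-dependent CpGs, the narrowest GR-independent CpGs, those that departed from their amplicon and the extremes of each amplicon. Positions 41099385 and 27961613 were added after their values were seen. The members, classes and alternatives were chosen with earlier results of these data known. Scripts were tested on simulated data. Software was matplotlib 3.10.9, scipy 1.17.1, pandas 2.3.3 and numpy 2.4.6 under Python 3.11.15.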

Additional observations from a re-analysis of the deposited data

Results flagged for a closer look

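Among the 8 amplicons and 50 CpGs, 3 amplicons and 7 CpGs had an interaction past an adjusted p of 0.05 by the beta-binomial test. The amplicons were 6c at 30.3, 6b at 5.80 and amplicon 3 at -9.16 percentage points. The CpGs were 49743986 at 31.2, 49743996 at 31.6 and 49744068 at 30.7 in amplicon 6c, 27961650 at 9.20 in 6a, 25888054 at -15.5 in amplicon 3, and 8404205 at -14.0 and 8404225 at -14.0 in amplicon 16. The 3 CpGs of 6c are nearly 1 measurement. Amplicon 3 was unresolved with log10 depth as a covariate (-5.32, interval -15.6 to 4.96). Amplicon 6b was unresolved without libraries above 2% non-CpG methylation (3.45, -0.657 to 7.56). Under other settings 8404205 passed in 5 of 14 retests and 8404225 in 5 of 13.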

How the results depend on the processing

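The count of 3 amplicons past the beta-binomial threshold was 0 without libraries above 2% non-CpG methylation (4 at an unadjusted p below 0.05, 4 GR-dependent by interval) and 0 with runs of neighbouring numbers as clusters (3 unadjusted). It was 2 or 3 under the other alternatives, and 3 without any 1 library. The count of 7 CpGs was 1 at a minimum of 10 reads, 1 with the 4 libraries left out whose closest matches lay in another group, 1 with clusters, 4 with matching libraries counted once and 12 by the quasi-binomial test, and ranged from 1 to 10 with 1 library left out. Without 1 library, GR-dependent counts ranged from 15 to 16 CpGs and 3 to 4 amplicons, GR-independent from 5 to 6 CpGs and 1 amplicon, and unresolved from 28 to 30 CpGs and 3 to 4 amplicons. With intervals widened for the number of features tested, 2 CpGs were GR-dependent (25888054 and 41099447), 44 were unresolved, and amplicon 3 became unresolved (-18.5 to 0.188). GR-independent CpGs numbered 2 at 1000 reads, 3 without CpGs below 1% or above 99% and 2 without CpGs near ends. GR-independent amplicons numbered 0 at 100 reads, 0 at 1000 reads, 0 without CpGs near ends and 2 with a margin of 10 points, while 5 amplicons were GR-dependent without CpGs near ends. CpGs departing from their amplicon numbered 3 at 10 reads, 4 at 100, 2 at 1000, 4 without the 4 libraries and 10 without libraries above 2% non-CpG methylation, against 8. The 10 were the same 8 with 41099447 (8.18, adjusted p = 0.0105) and 22488781 (27.9, 0.0394) added. By the quasi-binomial test amplicon 8 reversed to 2.47 and amplicon 15 to 1.71, neither passing. At 1000 reads amplicons 3, 6a and 8 could not be fitted. The causes were not tested.

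Replicate numbers are shared by the groups, but the labels do not say that they pair larvae. Over CpG deviations, same-numbered larvae had a median correlation of 0.145 between the mutant groups and 0.0992 between the wild-type groups. For larvae with different numbers these medians were -0.013 and -0.0181. Between groups of unlike genotype the median for same-numbered larvae was -0.127 to -0.0567. Each larva was also compared with each other group in turn. Its own number correlated best in 21 of 279 such comparisons, which count most larvae more than once. Among them were 6 of 23 treated mutants against control mutants and 5 of 24 the other way. Between the wild-type groups it was 0 of 23 in each direction. Each comparison chose among at most 24 larvae of the other group, so a random choice would rarely fall on the same number. The number to be expected without pairing was not computed. The main tests did not use the replicate number. With the replicate number as a block, 3 amplicons and 10 CpGs passed, and 11 CpGs were GR-dependent.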
